A study of Mus musculus with 6 samples.

Results

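Immunoglobulin transcripts were followed here through the constant regions of their heavy and light chains, the joining chain and the receptor that carries the finished antibody across the epithelium. The members were the rows of the deposited count table whose name was one of 9 gene symbols. Of the 9, 5 were found among 22354 rows, namely Ighm, Igkc, Iglc2, Igj (now Jchain) and Pigr. The IgA heavy chain gene Igha was not found by name, but 1 row under a clone-based symbol carries the Ensembl gene ID that GENCODE M21 gives to Igha (ENSMUSG00000095079), and it is described beside the members as the Igha row. Ighd, Iglc1 and Iglc3 were found neither by name nor by that ID and are not analysed here.

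The libraries came from the colon of 6 C57BL/6J mice, 1 library per mouse, 3 per genotype, all taken 1 month after tamoxifen. The 3 knockout libraries carry the genotype name Smad4Lrig1, and the 3 control libraries are labelled SMAD4+ or wild type and had tamoxifen too. The labels do not give the alleles, the driver of the deletion, age or sex. In the gut epithelium, Lrig1 is a marker of stem and progenitor cells. Crypts had been chelated off and the layer beneath the epithelium was scraped from the muscle for RNA. Libraries held 18918880 to 25867997 counts, and Smad4 itself stood in knockout at 64.0% of its control mean, with all 3 knockout libraries below all controls (log2 fold change -0.64 ± 0.21 SE, edgeR quasi-likelihood adjusted p = 0.338).

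Antibodies are built from heavy and light chains, each with a variable and a constant region, and the heavy chain constant region sets the class. A naive B cell makes IgM and IgD. Class switching replaces that region with another, and TGF-beta signalling through Smad proteins is a known inducer of the switch to IgA. In the gut wall, plasma cells join IgA into dimers with the joining chain. The polymeric immunoglobulin receptor on the basal side of epithelial cells then binds the dimer and carries it to the lumen.

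The label of the tissue was compared with marker genes before the results. The 15 epithelial markers summed to between 26668 and 36309 CPM (counts scaled to library size) in control and between 28753 and 31641 CPM in knockout. The summed level of the 8 fibroblast markers was 3.98 to 5.68 CPM in control libraries and 9.26 to 15.7 CPM in knockout libraries. That of the 6 smooth muscle markers was 14.7 to 57.1 CPM and 14.2 to 15.4 CPM. Transcripts of epithelial markers stood far above those of the stroma that the study names, in all 6 libraries. The 10 T cell markers summed to between 22.1 and 26.9 CPM in control and between 31.6 and 55.1 CPM in knockout.

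The lambda constant regions are shown first, because Iglc2 was the member with the highest fold change and has a close copy, Iglc3, on the same chromosome. The first 300 bases of the annotated coding parts are from GENCODE M21 (mm10), 5′ to 3′ on the minus strand, at chr16:19198554-19198853 for Iglc2, chr16:19065382-19065681 for Iglc3 and chr16:19061772-19062071 for Iglc1. Capitals mark the bases that differ from Iglc2 in a global alignment.
Iglc2: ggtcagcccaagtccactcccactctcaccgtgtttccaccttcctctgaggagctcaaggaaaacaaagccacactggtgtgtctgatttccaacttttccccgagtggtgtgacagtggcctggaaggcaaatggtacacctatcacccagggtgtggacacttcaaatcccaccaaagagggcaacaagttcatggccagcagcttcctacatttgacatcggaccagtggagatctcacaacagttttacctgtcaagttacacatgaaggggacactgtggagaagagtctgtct
Iglc3: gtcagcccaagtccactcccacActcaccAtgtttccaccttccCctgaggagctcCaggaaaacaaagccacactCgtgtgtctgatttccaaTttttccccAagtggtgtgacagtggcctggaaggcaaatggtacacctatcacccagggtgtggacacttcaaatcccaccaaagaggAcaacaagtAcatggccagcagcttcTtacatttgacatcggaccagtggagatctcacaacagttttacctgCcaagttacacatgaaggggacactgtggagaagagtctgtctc
Iglc1: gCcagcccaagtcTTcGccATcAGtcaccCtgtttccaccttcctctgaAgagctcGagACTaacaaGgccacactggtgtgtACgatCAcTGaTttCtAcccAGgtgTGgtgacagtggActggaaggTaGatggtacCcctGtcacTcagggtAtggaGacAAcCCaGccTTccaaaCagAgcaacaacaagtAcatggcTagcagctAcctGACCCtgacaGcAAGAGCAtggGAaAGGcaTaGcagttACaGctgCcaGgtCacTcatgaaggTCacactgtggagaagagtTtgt
Over the whole coding part, Iglc3 differs from Iglc2 at 11 of 314 aligned bases and Iglc1 at 84 of 314. Of the 561 different stretches of 51 bases, the read length, in the annotated Iglc2 transcripts, 41 (7.31%) also occur in Iglc3, and none occurs in Iglc1. Reads from those stretches cannot be placed on a single gene. No 51-base stretch of Ighm, Igha or Igkc occurs in another annotated transcript, and 0.288% of those of Igj and 0.458% of those of Pigr do. In GENCODE M21 an uncharacterised gene overlaps Igkc and the joining segment Iglj2 overlaps Iglc2, both on the same strand.

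Of the immunoglobulin members, 2 rose in knockout by 1 of the 2 tools, and the receptor transcript was nearly level. Ighm, the heavy chain constant region of IgM, and Iglc2, a lambda light chain constant region, rose with DESeq2, by log2 fold changes of 1.83 and 2.40. Igha, the kappa light chain constant region Igkc and the joining chain Igj had fold changes of similar size, from 1.82 to 1.95 on the log2 scale, but passed neither tool. Pigr had a log2 fold change of -0.02. No member passed the quasi-likelihood test of edgeR, in which 0% of 14180 genes passed and the smallest adjusted p was 0.0958. DESeq2 called 2 of the 5 members as higher, where it called 1.97% of tested genes in that direction and 0.331% as lower. Without adjustment, 4 of the 5 members had a quasi-likelihood p under 0.05 with knockout higher, as 5.19% of genes did, and none with knockout lower, as 3.35% did. With no filter on low counts that test called 2 members as higher, where it called 0.675% of 22354 genes. In bulk RNA from a scraped layer of mixed cells, more cells of a type and more RNA per cell cannot be told apart.

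**Figure D1:**
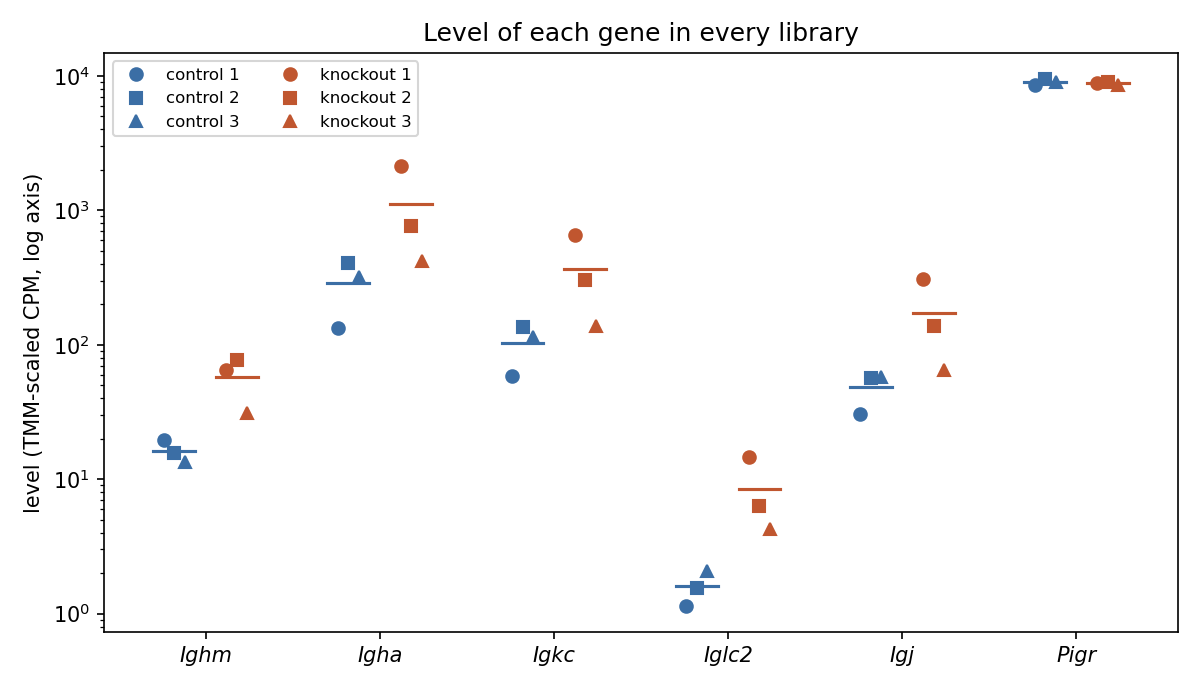
Level of the 5 members and the Igha row in each of the 6 libraries, in TMM-scaled CPM on a log axis, with lines at the group means. The 3 knockout libraries lie above the 3 control libraries for the immunoglobulin genes, by little for Igha and Igkc, and among them for Pigr.

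Ighm (ENSMUSG00000076617, chromosome 12, 113418558 to 113422730, mm10, minus strand) was at 19.7, 15.6 and 13.5 CPM in control libraries 1, 2 and 3 and at 65.2, 76.4 and 31.1 CPM in knockout libraries 1, 2 and 3. Knockout libraries 1 and 2 were high and close to each other, knockout library 3 was lower, and the groups did not overlap. The group means were 16.3 ± 3.13 and 57.6 ± 23.6 CPM (SD, n = 3 each). The log2 fold change was 1.82 ± 0.32 (SE), with an adjusted p of 0.0982 in the quasi-likelihood test of edgeR and of 3.80e-07 in DESeq2. DESeq2 kept this call without any 1 of the 6 libraries, with adjusted p between 5.10e-23 and 0.00345, and without knockout replicate 3 edgeR called it too (adjusted p = 0.00341). The authors' deposited table lists Ighm with a log2 fold change of 1.48 and an adjusted p of 5.82e-06.

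Igha (chromosome 12, 113254830 to 113260236, minus strand), the constant region of the class that dominates in gut secretions, spread far more among libraries. It was at 133.8, 403.4 and 319.6 CPM in control libraries 1 to 3 and at 2128, 769.8 and 422.0 CPM in knockout libraries 1 to 3. Knockout library 1 stood well above the other two, control library 1 was the lowest of all, and the lowest knockout library exceeded the highest control by less than the spread within either group. The log2 fold change was 1.95 ± 0.62 (SE, 95% interval 0.53 to 3.38), and it passed neither the quasi-likelihood test of edgeR (adjusted p = 0.328) nor DESeq2 (adjusted p = 0.285). Without knockout replicate 1 it was 2.09-fold rather than 3.88-fold higher, and without knockout replicate 3 it was 5.11-fold and DESeq2 called it (adjusted p = 0.0474). The authors' deposited table lists the row with a log2 fold change of 0.80 ± 0.33 (SE) and an adjusted p of 0.271. DESeq2 here gave 1.96 ± 0.79. Both the fold change and its error were smaller in the deposited table, but may have been estimated otherwise there. Their sizes cannot be compared directly.

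The light chains were represented by Igkc for kappa and Iglc2 alone for lambda. Igkc (ENSMUSG00000076609, chromosome 6, 70726435 to 70726966, plus strand) was at 58.9, 136.2 and 113.8 CPM in control and at 653.1, 304.0 and 136.7 CPM in knockout. The groups did not overlap, but the third knockout library lay only just above the second control library. Its log2 fold change was 1.82 ± 0.54 (SE), with an adjusted p of 0.289 in the quasi-likelihood test of edgeR and of 0.193 in DESeq2. Without knockout replicate 1 it was 2.14-fold rather than 3.54-fold higher, and without knockout replicate 3 DESeq2 called it (adjusted p = 0.00547). Iglc2 (ENSMUSG00000076937) was counted 25, 29 and 52 times in control and 318, 134 and 96 times in knockout, which gives 1.15, 1.56 and 2.07 CPM against 14.6, 6.36 and 4.26 CPM. Every knockout library exceeded every control library, and knockout library 1 was again the highest. Its log2 fold change was 2.39 ± 0.48 (SE), with an adjusted p of 0.116 in the quasi-likelihood test of edgeR and of 3.54e-05 in DESeq2. Without knockout replicate 1 it was 3.31-fold rather than 5.24-fold higher, and DESeq2 called it without any 1 of the libraries (adjusted p from 1.87e-07 to 0.00473). The quasi-likelihood test of edgeR called it without knockout replicate 3 (adjusted p = 0.0229). In the authors' deposited table Iglc2 had a log2 fold change of 1.57 and an adjusted p of 0.000115.

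Igj (ENSMUSG00000067149, chromosome 5, 88519809 to 88527891, minus strand), the joining chain of IgA dimers and IgM pentamers, was at 30.6, 56.5 and 57.4 CPM in control and at 310.5, 138.7 and 65.0 CPM in knockout. The order of the knockout libraries was that of Igha and Igkc, and the groups did not overlap. The log2 fold change was 1.83 ± 0.52 (SE), with an adjusted p of 0.262 in the quasi-likelihood test of edgeR and of 0.162 in DESeq2. It was 2.11-fold without knockout replicate 1, against 3.56-fold with all libraries. Without knockout replicate 3 it passed both tools (adjusted p = 0.0398 with edgeR and 0.00186 with DESeq2). Of the 5 members, 4 had groups that did not overlap with knockout above control, where 6.77% of tested genes did so, and the Igha row did so too. None lay wholly below control, as 6.52% of tested genes did. The authors' deposited table gave Igj and Igkc adjusted p values of 0.169 and 0.206, and 2.37% of its genes with an adjusted p were called as higher.

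Pigr (ENSMUSG00000026417, chromosome 1, 130826684 to 130852249, plus strand), the receptor that epithelial cells use to carry IgA and IgM to the lumen, had 175681 to 226735 counts per library. It was at 8539, 9433 and 9035 CPM in control and at 8921, 9084 and 8587 CPM in knockout. The libraries of both groups were interleaved. The group means were 9002 ± 448 and 8864 ± 253 CPM (SD, n = 3 each), a log2 fold change of -0.02 ± 0.11 (SE), with an adjusted p of 0.987 in the quasi-likelihood test of edgeR. The 95% interval of the log2 fold change ran from -0.28 to 0.24, and changes within it could not be seen with these libraries. Per epithelial marker transcript, the log2 of the Pigr level over the summed markers was -1.81 ± 0.18 in control and -1.77 ± 0.08 in knockout (SD, n = 3 each, exact permutation p = 0.9, two-sided).

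**Figure D2:**
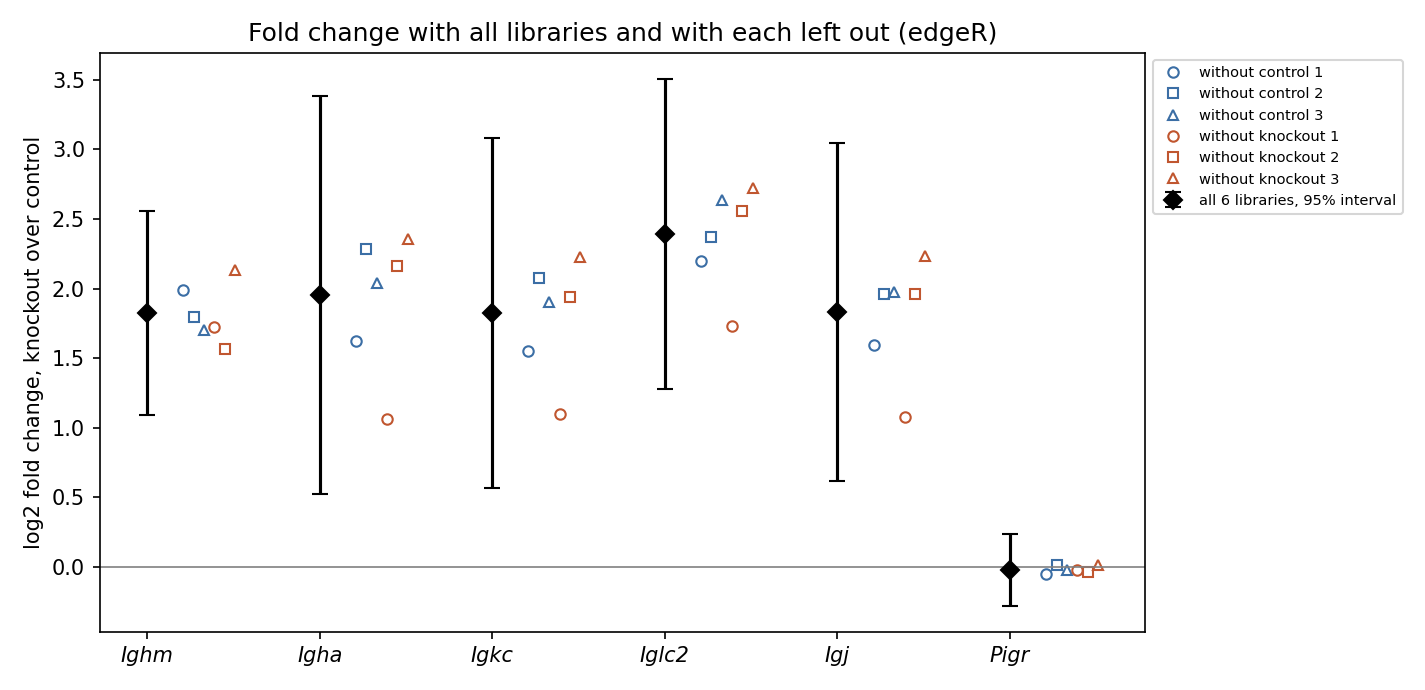
Log2 fold change of knockout over control from edgeR for each gene, with all 6 libraries (diamonds, 95% intervals) and with each library left out in turn (open symbols). Leaving out knockout library 1 gave the lowest values for Igha, Igkc, Iglc2 and Igj, but not for Ighm, and Pigr stayed near 0 throughout.

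Levels can be set beside each other between genes only per length, here in CPM per kilobase of all annotated exons joined. The length of the transcripts present was not measured, so the order of levels depends on this divisor. In control, Pigr stood at 2237 ± 111, Igkc at 194 ± 74.7, Igha at 107 ± 51.7, Igj at 19.1 ± 6.05, Ighm at 8.62 ± 1.66 and Iglc2 at 2.60 ± 0.76 CPM per kilobase (SD, n = 3). In knockout the order of these per-length levels was the same, with Pigr at 2202 ± 62.9, Igkc at 685 ± 495, Igha at 415 ± 338, Igj at 68.1 ± 50.1, Ighm at 30.5 ± 12.5 and Iglc2 at 13.7 ± 8.95 CPM per kilobase. Neighbouring levels of Igkc and Igha overlapped between libraries in both groups, and those of Igj and Ighm and of Ighm and Iglc2 did so in knockout.

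Igha, Igkc and Igj kept a narrower range of ratios to one another than to Ighm. Within a library, the log2 ratio of Igj to Igkc lay between -1.27 and -0.94 in the 6 libraries, a spread of 0.32. The log2 ratio of Igkc to Igha spread over 0.52 and that of Igj to Igha over 0.71. The ratio of Igha to Ighm, by contrast, spread over 2.26 log2 units, from 2.77 in control library 1 to 5.03 in knockout library 1. Its values were 2.77, 4.69 and 4.56 in control and 5.03, 3.33 and 3.76 in knockout, so the order of libraries crossed between the groups (exact permutation p = 1.0, two-sided, difference 0.03 ± 0.80 SE). It was lower in knockout by 0.59 on average without control replicate 1 and by 0.46 without knockout replicate 1. The ratio of Igj to Igha differed between the groups by -0.17 ± 0.22 (SE, exact permutation p = 0.7), which is within the spread between libraries.

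Ighm was set beside the summed level of the B cell markers. Over all 15 markers, the log2 ratio of Ighm to the sum was -3.15, -3.48 and -3.68 in control and -2.55, -2.36 and -3.06 in knockout, a spread of 1.32. All 3 knockout libraries exceeded all 3 controls, by 0.78 ± 0.26 (SE), with an exact two-sided permutation p of 0.1, the smallest that 3 against 3 libraries can give, and 0.5 adjusted over the 10 ratios. The same difference for Igha was 0.82 ± 0.74 (exact permutation p = 0.5). Blnk, an adaptor of the B cell receptor, alone made up 121.4 of 174.1 CPM in the mean control sum and had a log2 fold change of 0.19. The ratio was therefore also computed without Blnk, a choice made after these values were seen, so the resulting range is a description. The other 14 markers summed to 63.3, 47.5 and 47.3 CPM in control and 239.9, 257.2 and 120.4 CPM in knockout. The log2 ratio of Ighm to that sum lay between -1.95 and -1.60 in all 6 libraries, a spread of 0.35, and its group difference was -0.16 ± 0.08 (SE). The ratio of Igha to the same sum lay between 1.08 and 3.15. The 15 markers had a median log2 fold change of 2.06, against -0.01 over all tested genes. DESeq2 called 14 of them as higher, where it called 1.97% of all tested genes in that direction.

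**Figure D3:**
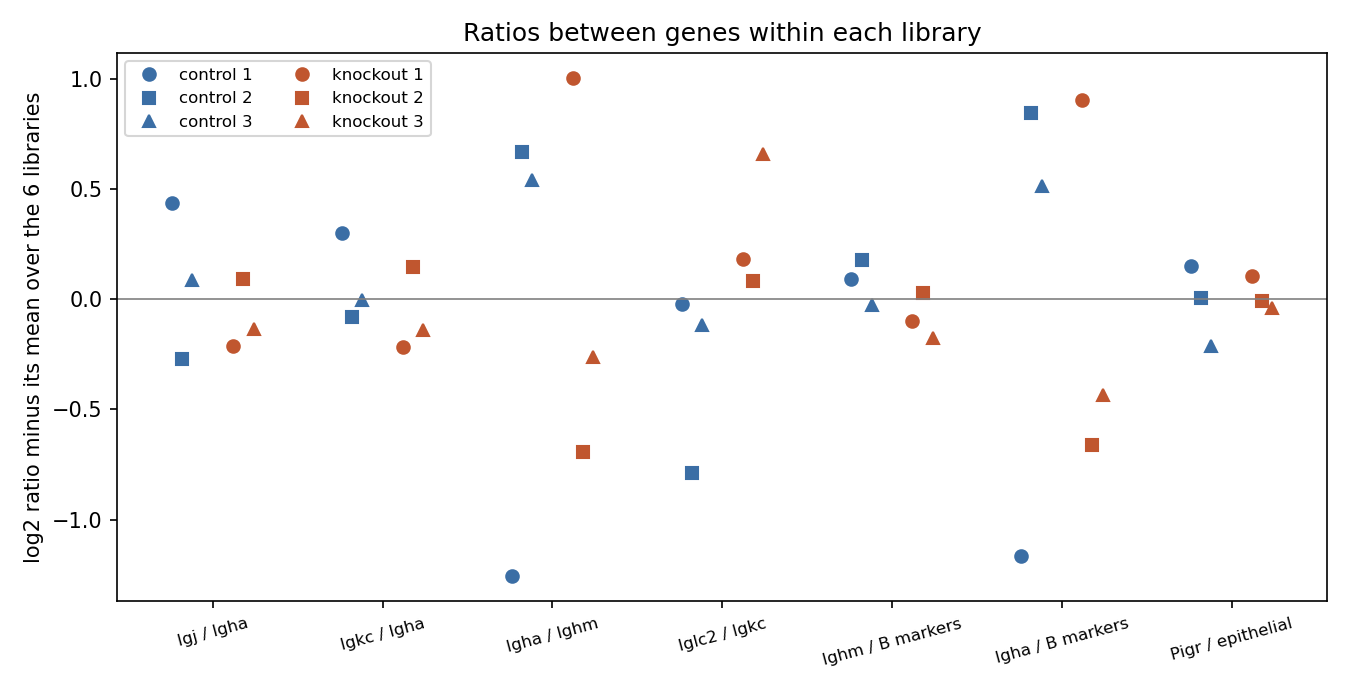
Log2 ratios between genes within each library, each shifted so that its mean over the 6 libraries is 0. The ratios of Igj and Igkc to Igha and of Ighm to the 14 B cell markers without Blnk span at most 0.71 log2 units, while the ratios of Igha to Ighm and of Igha to the B cell markers spread over more than 2 log2 units.

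The lambda and kappa light chains were compared through Iglc2 and Igkc. The log2 ratio of Iglc2 to Igkc was -5.68, -6.45 and -5.78 in control and -5.48, -5.58 and -5.00 in knockout. All 3 knockout libraries exceeded all 3 controls, by 0.62 ± 0.30 (SE) on average, with an exact two-sided permutation p of 0.1. That is the smallest p that 3 against 3 libraries can give, and adjusted over the 10 ratios computed it was 0.5.

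The other heavy chain classes were set beside Ighm and Igha. Shares were taken of the counts of the heavy chain constant regions found here, which leaves out Ighd. Igha held 82.8 ± 5.89% of these counts in control and 84.0 ± 4.68% in knockout (SD, n = 3 each). Ighm held 6.06 ± 4.44% and 5.59 ± 2.63%. Ighg2b, an IgG constant region listed as Ighg and matched by gene ID, held 6.29 ± 1.91% and 5.61 ± 1.98%, and Ighg2c 3.43 ± 0.92% and 4.01 ± 0.64%. These shares are of counts and depend on gene length, so they were compared only between libraries, and differed between the groups by less than their SD within a group. Ighm was highest in control library 1, at 11.2% of counts (Wilson 95% interval 10.2 to 12.2%), and lowest in knockout library 1, at 2.72% (2.58 to 2.86%). Of the 5 tested constant region and surrogate light chain genes outside the members, none passed either tool. All 5 had a positive fold change, as did 46.9% of all tested genes. Ighg2b had a log2 fold change of 1.82 ± 0.53 (SE), Ighg2c 2.02 ± 0.55 and Ighg3 1.44 ± 0.48. Vpreb3, a surrogate light chain gene, had 1.38 ± 0.37 and Ighg1 0.35 ± 0.62. Ighg1 held 0.982 ± 0.549% of heavy chain counts in control and 0.454 ± 0.165% in knockout. The groups overlapped for Ighg1, Ighg2b and Ighg3. Without knockout replicate 3, Ighg2b passed the quasi-likelihood test of edgeR (adjusted p = 0.0105) and DESeq2 (adjusted p = 3.95e-12).

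**Figure D4:**
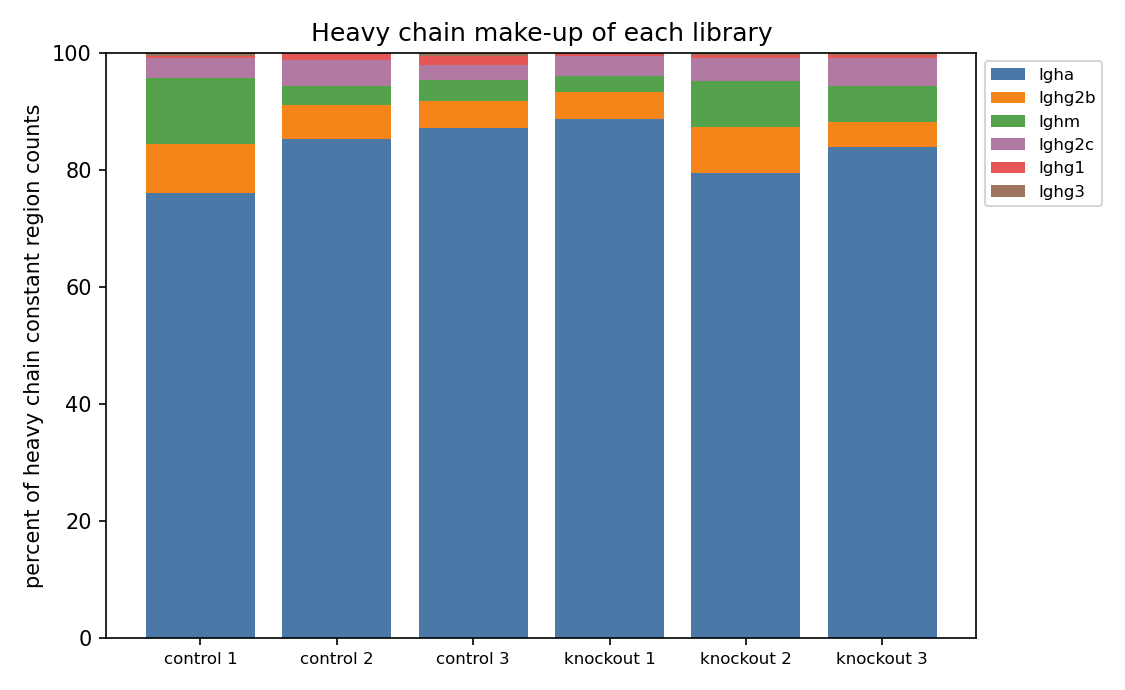
Share of each heavy chain class in the counts of the heavy chain constant regions found, Ighd not among them, as stacked bars per library in percent. Igha takes between 76.1% and 88.8% in each library, and the range in knockout overlaps that in control.

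Of 22 tested genes of antibody secreting cells, DESeq2 called 5 as higher and none as lower, where it called 1.97% of all tested genes as higher. The median log2 fold change of the 22 was 0.18, against -0.01 over all tested genes. Those that rose with DESeq2 were Irf4, a transcription factor of activated B cells and plasma cells (log2 fold change 2.13 ± 0.35 SE), Pou2af1, a B cell coactivator (1.94 ± 0.33), Mzb1, a chaperone of IgM assembly (1.81 ± 0.39), and the integrin chains Itga4 and Itgb7 (1.34 ± 0.23 and 1.07 ± 0.24). Sdc1, Prdm1 and Xbp1, of the same list, were not called (0.19 ± 0.12, 0.12 ± 0.17 and 0.07 ± 0.10). Itgb7, Sdc1, Prdm1 and Xbp1 were named after their values were seen. Of 22 tested genes of class switching to IgA, DESeq2 called 4 as higher and none as lower, beside the same 1.97% of all tested genes. The median log2 fold change of this list was 0.12. The genes called were the BAFF receptor Tnfrsf13c (2.03 ± 0.29), its relative Tnfrsf13b (1.61 ± 0.37), the B cell surface receptor Cd40 (2.24 ± 0.50) and Runx3 (1.17 ± 0.31). Runx3 is a transcription factor that acts with Smads in the switch to IgA. No gene of these lists passed the quasi-likelihood test of edgeR.

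No gene of receptor transport or of Pigr control passed a test. Of 21 tested genes of receptor sorting and transcytosis, none passed either tool, and their median log2 fold change was 0.03. Mal2, a protein of transcytosis, had 0.34 ± 0.15 (SE), the exocyst subunit Exoc4 0.12 ± 0.09, and the small GTPases Rab3b and Rab27a -0.89 ± 0.48 and -0.17 ± 0.14. Of 20 tested factors known to act on Pigr expression, none passed either tool and the median was 0.07, with Il4ra, a chain of the receptor for IL-4, at 0.65 ± 0.21, Tlr4 at 0.27 ± 0.11, Il17ra at 0.19 ± 0.08 and Ltbr at 0.15 ± 0.07. Of 10 tested other immunoglobulin receptors, with a median log2 fold change of 0.25, DESeq2 called 3 as higher. It called 1.97% of all tested genes in that direction. The 3 called are each expressed by B cells. These were Faim3, the receptor for IgM (2.23 ± 0.30), Fcer2a, the low-affinity receptor for IgE (1.84 ± 0.42), and Fcgr2b, the inhibitory receptor for IgG (1.68 ± 0.36). Lgals3, a lectin that binds IgE, had -0.36 ± 0.14. Fcer2a is also among the B cell markers.

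Promoters are shown for Pigr and Igj only, since rearranged heavy and light chains are transcribed from a promoter upstream of the variable segment. The 250 bases before each RefSeq start are shown because these genes, joined in IgA transport, had unlike fold changes. They are from GRCm38.p6, 5′ to 3′ on the gene's strand, at chr1:130826434-130826683 (plus) for Pigr and chr5:88527898-88528147 (minus) for Igj. Capitals mark matches, on either strand, to the E-box CACGTG or to the core AANNGAAA bound by interferon regulatory factors.
Pigr: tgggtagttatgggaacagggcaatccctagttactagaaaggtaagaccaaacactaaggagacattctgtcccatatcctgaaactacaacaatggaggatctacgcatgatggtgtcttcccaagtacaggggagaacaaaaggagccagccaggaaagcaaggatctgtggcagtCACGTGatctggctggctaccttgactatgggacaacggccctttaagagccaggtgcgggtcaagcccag
Igj: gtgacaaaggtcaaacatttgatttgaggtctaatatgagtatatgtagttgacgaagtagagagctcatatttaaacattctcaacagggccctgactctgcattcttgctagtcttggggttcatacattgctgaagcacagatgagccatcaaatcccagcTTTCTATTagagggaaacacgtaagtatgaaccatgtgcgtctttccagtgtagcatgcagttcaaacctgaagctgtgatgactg
The E-box begins 71 bases before the start of Pigr, and 6.02% of 32851 windows of the same length hold it. The Pigr window upstream held no AANNGAAA core, and that of Igj held 1, as do 21.3% of windows. A match to that core on the other strand lies in the first exon of Pigr, in the 26 bases aaacagTTTCAGTTttgacaatagtc (23.9% of windows of 300 bases that reach into the first exon hold one). Matches are to letters only.

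The markers of other cells moved as follows beside these results. DESeq2 called 1.97% of all tested genes as higher and 0.331% as lower. Of the 10 T cell markers, it called Cd2 and Cd4 as higher (log2 fold changes 1.58 ± 0.42 and 1.51 ± 0.36 SE). All 10 were positive, as were 46.9% of all tested genes, with Lck at 0.66 ± 0.17 and Trac at 1.08 ± 0.35. Of 6 tested fibroblast markers, DESeq2 called Dcn as higher (1.91 ± 0.23), and Col1a2 had 1.57 ± 0.46. Of 8 tested macrophage markers it called Lyz2 (1.69 ± 0.36), and Csf1r had 1.36 ± 0.37. None of the 15 epithelial, 4 smooth muscle or 2 endothelial markers tested was called, with Epcam at 0.12 ± 0.09, Cdh1 at 0.11 ± 0.10, Des at -2.63 ± 1.24 and Pecam1 at 1.05 ± 0.33. The part of tissue make-up in the immunoglobulin levels was not tested.

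The genes nearest to each member in pattern were found by the root mean square difference of their centred log2 levels over the 6 libraries, among 11267 genes. Nearest to Ighm were H2-DMb2, a chain of the peptide exchange molecule H2-DM, at 0.11 log2 units, the transcription factor Pou2f2 at 0.11, the kinase Prkcb at 0.12 and the surface protein Cd83 at 0.13. Reads of H2-DMb2 can be shared with its close copy. Nearest to Igha was a row under a clone name that GENCODE M21 does not list, at 0.36. Whether that row is itself an immunoglobulin gene could not be checked by name or gene type. Next came Il22ra2, a soluble receptor for IL-22, at 0.39, the RNA sensor Tlr7 at 0.40 and the enzyme Kmo at 0.45. Igkc (0.18) and Igj (0.24) were nearer to Igha than any of these. Nearest to Pigr were Ap3b1 (0.02), Atp6v0d1 (0.02), Rbl2 (0.02) and Zfp120 (0.02).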

How the data were processed

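RNA-seq was measured in 6 colon libraries, 3 per group. Each library has a column of read counts, in whole numbers, that the authors deposited. TopHat 2.1.0 mapped the reads to mm10, per the labels' protocols, and they were counted with HTSeq 0.5.4p5 beside samtools 1.3.1, and tested with edgeR 3.4.2. Per the submitters' processing notes Bowtie 0.12.2 was used, with builds named as mm8 and mm10, and the result columns bear the names DESeq2 writes, so these accounts differ. No source used here gives the strand handling. The authors deposited further columns with their own test: a mean normalised signal, a log2 fold change with its error and statistic (score columns), and a p-value, raw and adjusted. Those are printed only where the text names that table. Its fold changes may have been estimated otherwise than those computed here, which was not tested, so their sizes cannot be compared directly.

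After TMM scaling and the filterByExpr filter, the groups were compared in R 4.3.3 by the quasi-likelihood test of edgeR 4.0.16, whose design held only the group, with Benjamini-Hochberg adjustment over 14180 genes at 0.05. DESeq2 1.42.0 was run on the same genes. "Rose" is used of genes that passed DESeq2. Both tools were run on simulated counts with known changes, drawn with the spread estimated from these data. That run cannot show which tool is right where they differ here. Levels are TMM-scaled CPM, mean ± SD over 3 libraries. A count of 3 corresponds to 0.116 to 0.159 CPM of the library totals, before TMM scaling. That level and the binomial intervals reflect counting error only. Each library is from its own mouse, and no pair within a group agreed to within sampling noise. Ratios were tested by exact two-sided permutation of libraries, which cannot give less than 0.1.

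The members, the lists and the rules were chosen with earlier results of these data known. Named genes were the members, Smad4, up to 4 genes per list with the smallest p, and the 4 genes nearest in pattern to Ighm, Igha and Pigr with a mean of at least 1 CPM, leaving out predicted genes, pseudogenes and other immunoglobulin genes. A prior count of 2 was used for that measure. The lambda ratio uses Iglc2 alone. Of the deposited IDs, 21925 (98.1%) were found in GENCODE M21, whose exon lengths may differ from those of the annotation used for counting. Alternatives were other scalings, filters and tools, the replicate number as a block, and each library left out.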

Additional observations from a re-analysis of the deposited data

How the results depend on the processing

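Direction was the same under every alternative for Ighm, Igha, Igkc, Iglc2 and Igj, with log2 fold changes of 1.57 to 2.13, 1.06 to 2.35, 1.10 to 2.23, 1.73 to 2.72 and 1.08 to 2.23. Pigr lay between -0.06 and 0.02 and changed sign without control replicate 2 or knockout replicate 3 (0.0108 and 0.0110 with edgeR, 0.0151 and 0.00348 with DESeq2); edgeR gave -0.0547 to 0.0110 with 1 library left out. The quasi-likelihood test called 0 of the 5 members, 1 at a threshold of 0.1, 2 with no low-count filter and 0 to 3 with 1 library left out, DESeq2 2 (2 to 4 with 1 library left out) and the edgeR exact test 4. Genes called as higher and lower numbered 0 and 0 with the quasi-likelihood test, where 736 and 475 had an unadjusted p under 0.05. They were 88 and 4 at a threshold of 0.1, 151 and 6 with no filter, 280 and 47 with DESeq2, 337 and 47 with the exact test, and 0 to 261 and 0 to 12 with 1 library left out. DESeq2 then called 121 to 344 and 20 to 171. The limma-voom test called 0 and 0.

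Ratios with small differences changed sign with 1 library left out: Igha to Ighm (-0.59 to 0.39), Igj to Igha (-0.35 to 0.00686), Igj to Igkc (-0.13 to 0.0355), Pigr to epithelial markers (-0.0580 to 0.12) and Igha to 14 B cell markers (-0.74 to 0.26). Causes were not tested. With the replicate number as a block, 0 members and 0 genes passed, and Ighm had a log2 fold change of 1.74 (adjusted p = 0.0887). Same-numbered libraries carry consecutive library identifiers and correlated at -0.05, -0.14 and 0.14 in their deviations from the group means. With 3 libraries per group, these correlations cannot show whether such libraries were paired or handled together. The 3 members called without knockout replicate 3 were Ighm, Iglc2 and Igj, and the 261 genes called as higher were also without it. Iglc2 is limited by depth, at 25 to 52 counts per control library.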
